A study of Mus musculus with 8 samples.

Results

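Solute carriers are the membrane proteins that move amino acids, sugars, ions, metals, vitamins and metabolites into, out of and within cells, and 148 of their genes gave a clear array signal in mouse bone marrow-derived dendritic cells (BMDCs). The members were taken as every gene whose single annotated symbol begins with Slc and a number, less 9 that were left out by name (Slc7a11, Slc48a1, Slc7a5, Slc3a2, Slc7a1, Slc2a1, Slc2a3, Slc16a3 and Slc25a20). The array holds 347 such genes, 338 without the 9. Each gene was read from its brightest probe set (the group of short probes on the array that measures 1 transcript), and a gene was chosen by its signal, when the mean over all 8 arrays was 200 or more. Of the 338 genes, 148 passed and 190 did not, so the height of a member's signal is a description here and is not tested. Under the same threshold, 8743 of the 18193 genes on the array had a signal.

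Marrow precursors of female BALB/c mice were grown for 9 days with GM-CSF (200 U/mL per the sample labels), the cytokine that turns them into immature DCs. The extract, called [BF/S+L/Ep], is the butanol fraction of the stem and leaf of Echinacea purpurea taken up in DMSO, and cultures received 75 μg/mL of it or 0.1% DMSO alone (the vehicle) for 4 h or for 12 h. Each of the 4 groups (DMSO 4 h, [BF/S+L/Ep] 4 h, DMSO 12 h and [BF/S+L/Ep] 12 h) had 2 arrays, which the study calls biological replicates. No group was sampled before the vehicle or extract was added, so the time comparison is 12 h against 4 h. The values are MAS5 signals, the intensity that the array software assigns to a probe set, and the small number of arrays limits how precise any value is. The p-values measure the spread between these arrays.

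As general background, solute carriers of the plasma membrane feed the cell with amino acids, glucose, phosphate and metals, those of endosomes and lysosomes return digestion products to the cytosol or pump metals out of the phagosome, and those of the inner mitochondrial membrane exchange nucleotides, phosphate and organic acids with the cytosol. In phagocytes they are also known for roles in defence: Nramp1, the product of Slc11a1, withdraws divalent metals from engulfed microbes, and Slc15a3 and Slc15a4 export small bacterial peptides from endolysosomes. DCs depend on arginine, aromatic amino acids and glutamine while they prepare to present antigen.

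Between 4 h and 12 h, 7 of 148 members (4.73%) passed the test in vehicle and 9 of 148 (6.08%) in extract. Of all genes with a signal of 200 or more, 6.68% passed in vehicle and 8.54% in extract. Among the 5 members that passed in both, the largest changes were the rises of Slc16a10 (aromatic amino acids) and Slc11a1 (phagosomal metals). Between extract and vehicle 0 of 148 passed at 4 h, at 12 h or over both times together. Of all genes with such a signal, 0.0229%, 0.0915% and 0.389% passed in these comparisons.

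Substrates were assigned from general knowledge of each family. They gave 29 mitochondrial carriers, 26 metal transporters, 20 amino acid transporters and 19 transporters of nucleotide sugars and other solutes of the Golgi and endoplasmic reticulum. A further 11 carry organic cations, organic anions or choline, 9 carry sodium, potassium, calcium, protons, chloride or bicarbonate, 8 carry hexoses or sugar phosphates, and 7 carry peptides and other solutes of lysosomes. The smallest classes were inorganic anions (5), vitamins and heme (4), fatty acids (3), nucleosides (2) and monocarboxylates (1). Another 4 members carry a solute carrier symbol without being transporters: the scaffold proteins Slc9a3r1 and Slc9a3r2, the adaptor Slc4a1ap and Slc7a6os, which is named for its place opposite Slc7a6.

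As a description of what chose them, all of the 148 members lay above the background reference, taken as the 95th percentile of 84 probe sets for odour and taste receptors (66.6 to 106.9 over the arrays), on at least 7 arrays, and 147 did so on all 8. The group means were 200 or more in all 4 groups for 141 members. The other 7 (Slc20a2, Slc22a4, Slc25a14, Slc25a42, Slc26a11, Slc4a8 and Slc7a4) had at least 1 group mean under 200 and entered through the groups where they were higher. Just inside the threshold were Slc20a2 (mean signal 214), Slc26a11 (223), Slc5a3 (232.6) and Slc22a15 (240.7), and just outside it were Slc12a2 (194.1), Slc25a25 (191.6), Slc8a1 (184.7) and Slc16a13 (172.8). Of the transporters known from phagocytes, 6 fell below it (Slc15a2, Slc16a6, Slc1a4, Slc39a8, Slc46a1 and Slc8a1), among them the zinc importer Slc39a8 (mean signal 38.9, above the reference on 0 arrays) and the folate and heme carrier Slc46a1 (58.2, above it on 1 array).

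The brightest members of each class, which the rule itself favours, are named to show what the class holds. Among mitochondrial carriers these were Slc25a5 (19954 to 25846 over the 8 arrays), Slc25a3 (15788 to 18088) and Slc25a39 (10069 to 14873). Among metal transporters they were the zinc transporters Slc39a1 (2189 to 2668.3), Slc39a11 (1471.5 to 1757.9) and Slc30a9 (1107.3 to 1478.6). Among Golgi and endoplasmic reticulum transporters they were the acetyl-CoA carrier Slc33a1 (1383.3 to 2460.1), Slc35a3 (1574.4 to 1848.9) and Slc35b1 (1316.1 to 2028.1). The sodium, calcium and lithium exchanger Slc8b1 (1309.5 to 1867.9), the anion exchanger Slc4a2 (611 to 938.1), Slc45a4 (900.3 to 1255.4), Slc10a3 (876.4 to 1048.2) and Slc26a6 (238.5 to 431.7) led or followed in smaller classes, with Slc27a3 (424.2 to 583), Slc27a4 (316.1 to 621.2) and Slc27a1 (317.8 to 465.8) for fatty acids, Slc29a1 (382.8 to 599.9) and Slc29a4 (249.5 to 489.4) for nucleosides, and the thiamine transporter Slc19a2 (411.6 to 708.3) and the riboflavin transporter Slc52a3 (255 to 497.9) for vitamins. Signals of different genes come from different probes and are not ranked against each other.

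The replicates of a group were close for these genes. The median difference between the 2 arrays of a group lay between 0.12 and 0.152 on the log2 scale, and 1 member in 1 group differed by more than 2-fold between its arrays (Slc20a2 in [BF/S+L/Ep] at 12 h, with 243.8 and 62.5). All 10 dendritic cell markers looked for were measured, 9 of them above the reference on all 8 arrays and Flt3 on 6, with the integrin Itgax at 13920 to 19541. Of the mast cell markers 4 of 5 (Cpa3, Mcpt4, Cma1 and Tpsb2), and of the erythroid markers 5 of the 5 measured, lay at or under the reference on most arrays. The other mast cell marker, Kit, lay above it on all 8 arrays (246.6 to 388.6). So did the 5 macrophage markers measured, with Csf1r at 33146 to 38691. In RNA from a whole culture, a change in a gene's signal per cell and a change in the share of cells that express it cannot be told apart.

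From 4 h to 12 h in vehicle, 6 members rose and 1 fell at an adjusted p under 0.05 from limma, with Benjamini-Hochberg adjustment over all 45037 probe sets. That is 4.73% of the members, where 6.68% of all genes with a signal of 200 or more passed in the same comparison (3.57% higher, 3.11% lower). In extract, 6 members rose and 3 fell, 6.08% of the members against 8.54% of all such genes (4.37% higher, 4.17% lower). Solute carriers as a class therefore passed at a share near that of other expressed genes, and the results below concern single members. These were picked on the same arrays, so where times are said not to overlap, that describes the values and adds no support. When moderation of the spread left out its dependence on signal, 0 members passed in either arm.

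Both arms, which share no array, called 5 of the same members: Slc16a10, Slc11a1, Slc44a1, Slc22a23 and Slc38a6. They are 5 of the 7 called in vehicle and 5 of the 9 called in extract, all higher at 12 h. Of all 8743 genes with a signal, 458 were called in both arms, 584 in vehicle and 747 in extract. Calls shared by both arms are therefore not particular to solute carriers. Over the 148 members the 2 time effects had a Pearson correlation of 0.69 and the same sign in 114 (77%), and over all 8743 genes with a signal 0.81 and 77.7%. These correlations are across genes, which are not independent replicates.

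**Figure D1:**
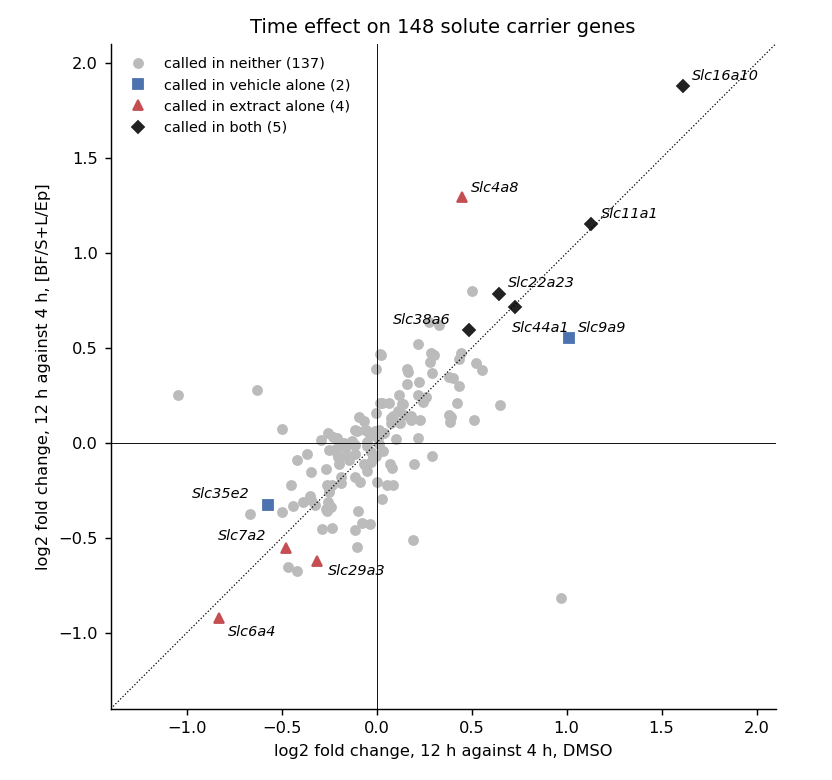
Log2 fold change of 148 solute carrier genes from 4 h to 12 h in vehicle (horizontal axis) and in extract (vertical axis), 1 point per gene, with the dotted line at equal change. Symbols mark genes past an adjusted p of 0.05 in both arms (5), in vehicle alone (2) or in extract alone (4), and Slc16a10 lies at the upper right with 1.61 and 1.88.

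The upstream sequences of Slc16a10, Slc11a1 and Slc44a1 are shown because these genes had the smallest adjusted p among the 5 called in both arms and the array was read at 1 probe set each. They are RefSeq sequence of mouse build GRCm38.p6, 250 bases that end at the base before the annotated start of transcription, in the direction of transcription. Slc16a10 lies on chromosome 10 (minus strand, chr10:40142255-40142504), Slc11a1 on chromosome 1 (plus strand, chr1:74374953-74375202) and Slc44a1 on chromosome 4 (plus strand, chr4:53440163-53440412, the first of 2 starts in the table). Capitals mark matches on either strand to any of 8 short motifs: CACGTG (the E-box), GAGGAA (PU.1), TGANTCA (AP-1), GGGCGG (the GC box), CCAAT (the CCAAT box), TATAAA (the TATA box), TGACNNNGC (the antioxidant response element) and GCGTG (the xenobiotic response element).
Slc16a10: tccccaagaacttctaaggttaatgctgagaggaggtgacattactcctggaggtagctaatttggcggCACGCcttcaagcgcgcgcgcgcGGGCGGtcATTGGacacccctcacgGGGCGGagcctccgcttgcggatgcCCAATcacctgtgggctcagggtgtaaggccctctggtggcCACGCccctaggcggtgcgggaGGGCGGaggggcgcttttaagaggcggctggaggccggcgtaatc
Slc11a1: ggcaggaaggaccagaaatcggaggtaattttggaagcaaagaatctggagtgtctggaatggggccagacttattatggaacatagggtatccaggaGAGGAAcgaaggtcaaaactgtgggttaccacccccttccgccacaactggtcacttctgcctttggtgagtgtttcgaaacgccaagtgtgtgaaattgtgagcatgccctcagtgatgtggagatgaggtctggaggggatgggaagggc
Slc44a1: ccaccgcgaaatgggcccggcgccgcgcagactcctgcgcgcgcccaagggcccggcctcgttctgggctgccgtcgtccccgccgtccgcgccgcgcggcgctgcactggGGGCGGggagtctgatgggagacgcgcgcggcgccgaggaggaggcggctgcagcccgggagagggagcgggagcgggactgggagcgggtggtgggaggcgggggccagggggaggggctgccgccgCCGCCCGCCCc
The window of Slc16a10 held 3 GC boxes, 2 CCAAT boxes and 2 copies of GCGTG. That of Slc44a1 held 3 GC boxes, 2 of which overlap, and no other of the 8 motifs. The Slc11a1 window, at 51.2% G and C, differed in holding no GC box and a single match, to the PU.1 letters at positions -152 to -147 from the start. The GC box was present in 66% of the 153 promoters listed for 116 of the members and in 32.7% of all 32851 promoters of the table, where the median G and C content was 62.4% and 52.4%. The PU.1 letters were in 18.3% and 23.3%, and the E-box letters in 15% and 6.02%. The members were chosen by signal and the 32851 promoters were not, so these shares do not set solute carriers against other expressed genes. These are matches of letters, with no measurement of binding behind them.

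Amino acid transporters held both the largest rise and one of the clearest falls. Slc16a10, also known as TAT1, lets aromatic amino acids such as tryptophan and tyrosine cross the plasma membrane. Its signals were 551.8 and 619.7 in vehicle and 558 and 698.5 in extract at 4 h, and 1804.5 and 1766.7 in vehicle and 2314.3 and 2284 in extract at 12 h. Every array at 12 h lay above every array at 4 h, and the change was 3.05-fold in vehicle (log2 1.61, standard error 0.14, adjusted p = 2.73e-05) and 3.68-fold in extract (log2 1.88, standard error 0.14, adjusted p = 8.44e-06). A second, dimmer probe set of the gene (mean signal 367) gave 1.70 and 2.15 on the log2 scale, with adjusted p of 0.0093 and 0.0014. It kept its call without any 1 of the 8 arrays, and lost it only without the intensity trend (adjusted p = 0.116 in vehicle and 0.0958 in extract).

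Slc38a6, of the sodium-coupled neutral amino acid transporter family, read 1304.8 and 1520.4 in vehicle and 1296.6 and 1294.2 in extract at 4 h, and 2025.1 and 1923.1 in vehicle and 1975.4 and 1940.5 in extract at 12 h. The arrays of the 2 times did not overlap in either arm, and the log2 rise was 0.49 in vehicle (adjusted p = 0.0499) and 0.60 in extract (adjusted p = 0.0136). The vehicle value sat at the threshold and held it under 1 of 18 other settings. The extract call was lost without any 1 of the 4 extract arrays, with adjusted p up to 0.114, and in both arms when all probe sets of the gene were averaged (0.853 and 0.407).

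The fall was that of Slc7a2, the cationic amino acid transporter CAT2 that brings arginine into macrophages and DCs. At 4 h it read 2969 and 3327.4 in vehicle and 3417.3 and 3958.3 in extract. At 12 h it read 2416.6 and 2115 in vehicle and 2618 and 2407.1 in extract. All arrays at 12 h were lower than all arrays at 4 h, and the log2 change was -0.55 in extract (adjusted p = 0.0251) and -0.48 in vehicle (adjusted p = 0.0643). A pair of its other probe sets, with mean signals of 546 and 540, gave the larger changes of -0.91 and -0.92 in vehicle (adjusted p = 0.0120 and 0.0124). Its dimmest probe set (mean signal 148) gave 0.16 in vehicle and -0.30 in extract and did not pass. The extract call was lost without [BF/S+L/Ep] 4 h replicate 2 (adjusted p = 0.132), 12 h replicate 1 (0.101) or 12 h replicate 2 (0.170).

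Metal transporters were led by Slc11a1, whose product Nramp1 is known to move iron and manganese across the phagosome membrane. It read 366.4 and 479.8 in vehicle and 512 and 502.1 in extract at 4 h, and 969.9 and 869.3 in vehicle and 1218.5 and 1044.6 in extract at 12 h. Its rise was 2.19-fold in vehicle (log2 1.13, standard error 0.17, adjusted p = 0.00259) and 2.23-fold in extract (log2 1.15, standard error 0.17, adjusted p = 0.00182), with no overlap between times. Without DMSO 12 h replicate 1 the adjusted p in vehicle was 0.051. The array has 1 probe set for it and measures its RNA. Whether Nramp1 was functional in these BALB/c cells was not measured.

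Choline and the organic ions gave the other rises that both arms shared. Slc44a1, the choline transporter CTL1 that supplies phosphatidylcholine synthesis, read 1657.4 and 1623.3 in vehicle and 1673.7 and 1379.4 in extract at 4 h. At 12 h it read 2634.5 and 2807.2 in vehicle and 2476.6 and 2514.5 in extract, and the change was 1.66-fold in vehicle (log2 0.73, adjusted p = 0.00526) and 1.64-fold in extract (log2 0.72, adjusted p = 0.00465). The remaining probe sets of Slc44a1 were dim, with mean signals of 136, 41.1 and 28.8, and did not pass, and averaging all of them ended both calls (adjusted p = 0.189 in vehicle and 0.954 in extract). The vehicle call was also lost without DMSO 4 h replicate 1 (0.0572), 4 h replicate 2 (0.0795) or 12 h replicate 2 (0.0722) and after median centring (0.0596).

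Slc22a23, an orphan of the organic cation and anion transporter family, had log2 changes of 0.64 in vehicle (adjusted p = 0.0444) and 0.78 in extract (adjusted p = 0.0123). Its 4 h arrays read 950.7 and 746.2 in vehicle and 825.2 and 835.1 in extract, and its 12 h arrays 1209.6 and 1434 in vehicle and 1336.9 and 1529.5 in extract, with no overlap. The vehicle call was lost when any 1 array was left out, with adjusted p up to 0.381, and the extract call without [BF/S+L/Ep] 4 h replicate 1 (0.0816), 4 h replicate 2 (0.0541) or 12 h replicate 2 (0.115).

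Slc6a4, the serotonin transporter, went the other way. It read 563.3 and 489.8 in vehicle and 494.3 and 460.8 in extract at 4 h, and 316.6 and 275.7 in vehicle and 310.4 and 205 in extract at 12 h. The log2 change was -0.92 in extract (adjusted p = 0.0458) and -0.83 in vehicle (adjusted p = 0.0873). Left-out arrays ended the extract call in 7 of 8 cases, with adjusted p up to 0.282. Slc18a2, the vesicular monoamine transporter that is known from mast cells and platelets, ran from 208.5 to 467.8 over the 8 arrays, and its log2 time effect over both arms was 0.32 (adjusted p = 0.418).

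Among transporters of sodium, protons and bicarbonate 2 members passed, each in 1 arm. Slc9a9, a sodium and proton exchanger of recycling endosomes, read 561.4 and 465.5 in vehicle at 4 h and 1043 and 1016.4 in vehicle at 12 h, a 2.01-fold rise (log2 1.01, adjusted p = 0.00361). In extract it read 521.5 and 548.7 at 4 h and 852.4 and 724.3 at 12 h (log2 0.55, adjusted p = 0.0855). Slc4a8, a sodium-coupled bicarbonate transporter, read 200.9 and 195 in extract at 4 h and 477.1 and 493.2 in extract at 12 h, a 2.45-fold rise (log2 1.29, adjusted p = 0.0045), against 225.1 and 258.4 and then 350 and 310.2 in vehicle (log2 0.45, adjusted p = 0.413). The difference between the arms did not pass for either gene: it was -0.46 for Slc9a9 (unadjusted p = 0.058, limma over all 8 arrays) and 0.84 for Slc4a8 (unadjusted p = 0.014, limma), and both had an adjusted p of 1.0. The dimmer probe sets of both genes (mean signals of 124 or less) did not pass, and with all probe sets of the gene averaged the calls were lost, with adjusted p of 0.361 and 0.738. That of Slc9a9 was lost without DMSO 4 h replicate 2 (0.072) or 12 h replicate 1 (0.0512), and that of Slc4a8 without [BF/S+L/Ep] 12 h replicate 2 (0.0512).

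A lysosomal and a Golgi transporter each passed in 1 arm, with lower signals at 12 h in both. Slc29a3, which lets nucleosides out of lysosomes, read 2232.6 and 2127.7 in extract at 4 h and 1269.6 and 1585.6 in extract at 12 h (log2 -0.62, adjusted p = 0.0196). In vehicle it read 2103.6 and 2415.8 and then 1824.9 and 1802.6 (log2 -0.31, adjusted p = 0.320). The extract call was lost without [BF/S+L/Ep] 4 h replicate 1 (0.124), 4 h replicate 2 (0.0596) or 12 h replicate 1 (0.217) and with all probe sets averaged (0.266). Slc35e2, of the nucleotide sugar transporter family, read 1077.4 and 1096.6 in vehicle at 4 h and 746.4 and 717.2 in vehicle at 12 h (log2 -0.57, adjusted p = 0.0471), a call that was lost when any 1 array was left out. Its change in extract was -0.33 (adjusted p = 0.283). Over both treatments Slc29a3 fell by 0.47 (adjusted p = 0.00652) and Slc35e2 by 0.45 (adjusted p = 0.0112) on the log2 scale, and the difference between the arms did not pass for either (unadjusted p = 0.115 and 0.219, limma).

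**Figure D2:**
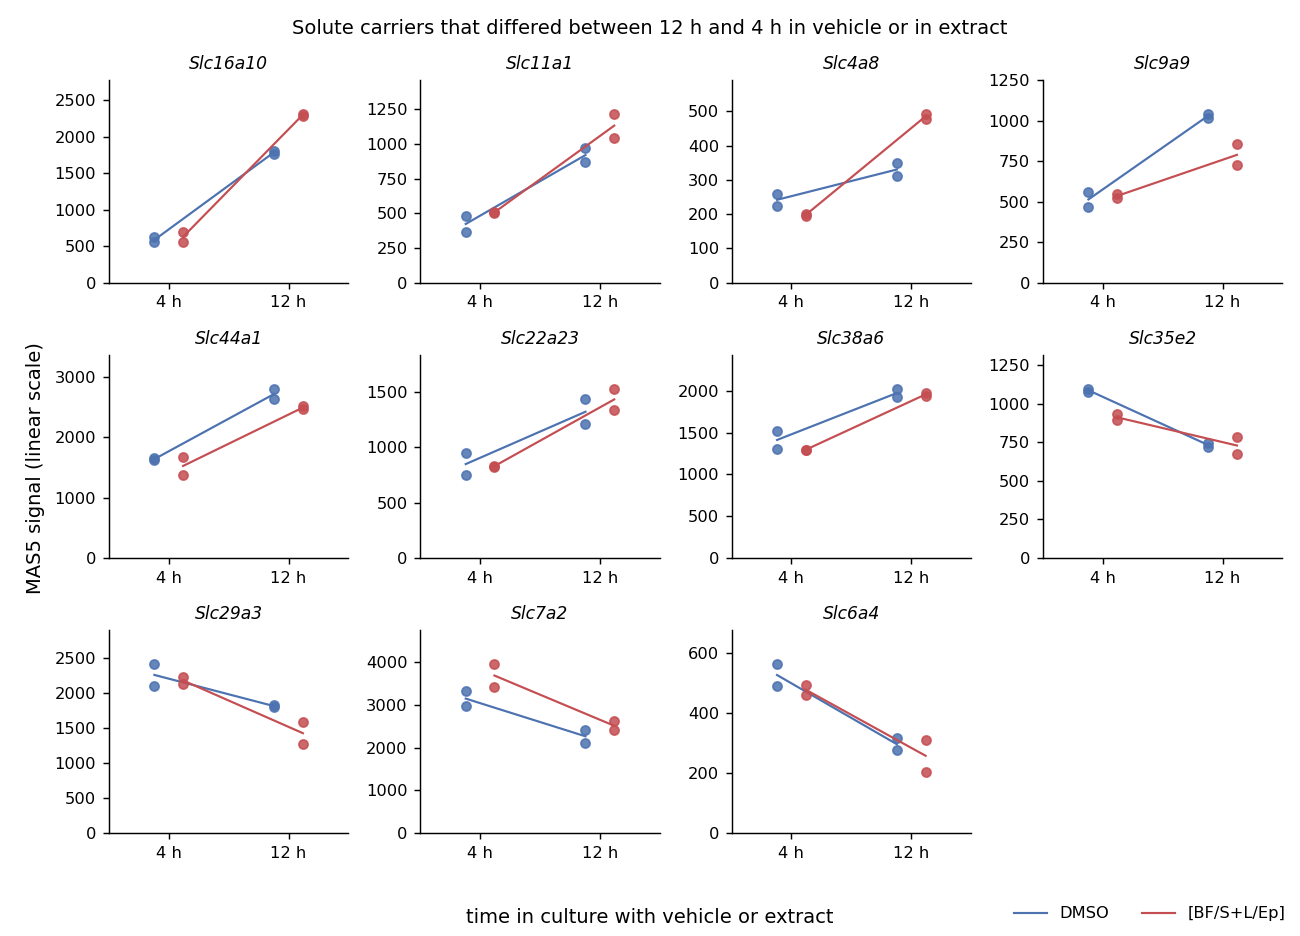
MAS5 signal (linear scale from 0) of the 11 members called between 12 h and 4 h in vehicle or in extract, with 1 dot per array and lines joining the group means. The 4 arrays at 12 h lie above the 4 at 4 h in 7 genes, with Slc16a10 moving from 551.8 to 698.5 up to 1766.7 to 2314.3, and below them in the other 4. The genes were picked by adjusted p on these arrays, so this separation adds no support.

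A comparison of time over both treatments, using all 8 arrays, was added after the first results were seen, and it shares its arrays with the comparisons above. It called 27 members, 18 higher and 9 lower, 18.2% of the members where 18.5% of all genes with a signal passed (8.78% higher, 9.72% lower). Of the 27, 9 kept the call whichever array was left out (Slc11a1, Slc16a10, Slc22a23, Slc38a6, Slc44a1, Slc4a8, Slc6a4, Slc7a2 and Slc9a9). Without the intensity trend only Slc16a10 passed, 15 passed after median centring of the arrays, and without DMSO 4 h replicate 1 there were 12.

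Of the 26 metal transporters 5 rose and 0 fell over both treatments, but without DMSO 4 h replicate 1 only Slc11a1 of these 5 passed, and median centring left 2 of them. After Slc11a1 (log2 1.14) came Slc31a2, a low-affinity relative of the copper importer (0.65, adjusted p = 0.0175), the mitochondrial iron importer Slc25a37 (0.38, adjusted p = 0.0203), the iron exporter ferroportin Slc40a1 (0.37, adjusted p = 0.0397) and Slc41a1, of a magnesium transporter family (0.33, adjusted p = 0.0436, with a sign that turned when its probe sets were averaged). The ferroportin signals were 624.5 to 741.2 at 4 h and 737.7 to 974.7 at 12 h, ranges that overlapped across treatments but not within either. The calls of Slc40a1 and Slc41a1 were lost whichever array was left out (adjusted p up to 0.142 and 0.144), and that of Slc25a37 in all but 2 cases. The median over the 26 was 0.00 on the log2 scale and over all genes with a signal -0.04. The zinc exporter Slc30a1, which the zinc sensor MTF1 is known to induce, ran from 911.3 to 1132.1 over the 8 arrays, and the copper importer Slc31a1 from 761.7 to 947.9, with time effects of -0.07 and 0.00. The iron importer Slc11a2 read between 251.7 and 497.9 and did not pass either (0.24, adjusted p = 0.566).

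Of the 20 amino acid transporters 4 rose and 2 fell. Besides Slc16a10 and Slc38a6, the rises were those of Slc38a2, a glutamine and alanine importer that amino acid shortage is known to induce (4288.9 to 4743.3 at 4 h and 5557.9 to 6430.5 at 12 h, log2 0.37, adjusted p = 0.00749), and of the creatine transporter Slc6a8 (0.43, adjusted p = 0.0362). Slc6a8 read 695.7 and 797.2 in vehicle and 871.3 and 657.2 in extract at 4 h, and 1131.9 and 1208.9 in vehicle and 914.9 and 826.3 in extract at 12 h. Its times overlapped in extract (log2 0.20, adjusted p = 0.663), its call was lost in all but 1 case when an array was left out, and its second probe set gave 0.67 over both treatments (adjusted p = 0.0015). The falls were those of Slc7a2 (-0.51, adjusted p = 0.0021) and of the taurine transporter Slc6a6 (-0.35, adjusted p = 0.0193). The call of Slc6a6 was lost after median centring (adjusted p = 0.0571) and with its probe sets averaged (0.855). Of the 6 amino acid calls 3 held after median centring. Several transporters that leukocytes use for glutamine, leucine and arginine had values without a call: Slc1a5 (-0.31, adjusted p = 0.0959), Slc7a7 (-0.32, adjusted p = 0.163), Slc7a8 (0.45, adjusted p = 0.108), Slc43a2 (0.24, adjusted p = 0.159) and the lysosomal arginine sensor Slc38a9 (0.17, adjusted p = 0.461). The glutamine transporter Slc38a1 ran from 1551.9 to 1784.9 over the 8 arrays (adjusted p = 0.987).

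Mitochondrial carriers had 1 rise and 2 falls among 29 members, and a median of -0.11. The pyrimidine nucleotide carrier Slc25a36 rose by 0.37 on the log2 scale (1844.1 to 2021.5 at 4 h and 2365.5 to 2685.9 at 12 h, adjusted p = 0.00943). The glutathione carrier Slc25a39 (11942 to 14873 and then 10069 to 10913) and the ADP and ATP exchanger Slc25a5 (24406 to 25846 and then 19954 to 21686) fell by 0.39 and 0.28 (adjusted p = 0.00843 and 0.0272). After median centring the calls of Slc25a36 (adjusted p = 0.0959) and Slc25a5 (0.151) were lost. With the probe sets of a gene averaged, those of Slc25a36 (0.386) and Slc25a39 (0.879) were lost. All 8 probe sets of Slc25a5 had values under 0 in this comparison, from -0.31 to -0.17, and 4 of them passed. Its brightest probe set carries the suffix that the array maker gives to probes shared with similar transcripts, as do those of 4 other members (Slc25a39, Slc29a4, Slc35a4 and Slc44a2), so their signals may include related sequences. The phosphate carrier Slc25a3 (-0.11, adjusted p = 0.452), the citrate carrier Slc25a1 (-0.25, adjusted p = 0.152) and the dicarboxylate carrier Slc25a10 (0.25, adjusted p = 0.452) did not pass.

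Further rises came from the phosphate importer Slc20a1 (0.44, adjusted p = 0.0113), the sulfate transporter Slc26a2 (0.28, adjusted p = 0.0457), the lysosomal hexose transporter Slc2a6 (0.38, adjusted p = 0.0126) and the lysosomal transporter Slc49a4 (0.46, adjusted p = 0.0202). After median centring all of these rises lost their call (adjusted p = 0.0714, 0.356, 0.129 and 0.0662, in the same order). With probe sets averaged, Slc20a1 (0.214), Slc26a2 (0.0618) and Slc49a4 (0.167) lost it. Further falls came from Slc35e3, of the nucleotide sugar transporter family (-0.56, adjusted p = 0.0219), and Slc10a7, of the bile acid transporter family (-0.52, adjusted p = 0.0264). The call of Slc10a7 was lost whichever array was left out (adjusted p 0.052 to 0.127) and with its probe sets averaged (0.928), and that of Slc26a2 in all but 1 case (up to 0.170). The peptide transporters of endolysosomes had values of -0.15 for Slc15a3 (9827.9 to 12752 over the 8 arrays, adjusted p = 0.332) and 0.32 for Slc15a4 (816.4 to 1204.4, adjusted p = 0.0671). In the classes of fatty acids, vitamins and heme, nucleosides, and monocarboxylates 0 of 10 members passed, where the lysosomal nucleoside carrier Slc29a3 is counted with the lysosomal class. That included the lactate transporter Slc16a1 (-0.34, adjusted p = 0.139), the folate carrier Slc19a1 (-0.25, adjusted p = 0.422) and the ascorbate transporter Slc23a2 (-0.02, adjusted p = 0.937).

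**Figure D3:**
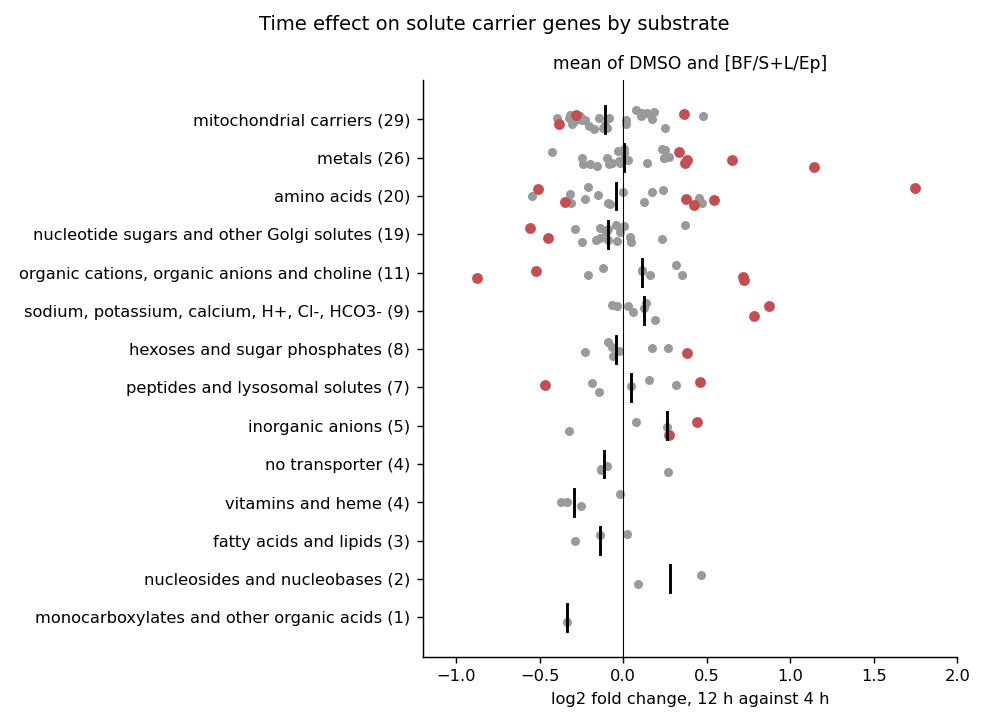
Log2 fold change from 4 h to 12 h over both treatments for the 148 members by substrate (number of members in parentheses), with red dots for the 27 past an adjusted p of 0.05 and a black bar at each group's median. Metal transporters have 5 red dots, all to the right of 0, and the mitochondrial median lies at -0.11.

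Other genes around these transporters were compared over the same period, with shares called to be read beside the 6.68% in vehicle and 8.54% in extract given above. Of 32 genes of other transporter families with a signal (ABC transporters, aquaporins and the like), 1 rose and 1 fell in vehicle and 2 rose and 1 fell in extract, and the cholesterol exporter Abca1 was higher in both (log2 0.83 and 0.85). Of 16 genes for iron, zinc and copper handling, 1 passed in vehicle and 3 in extract: Ncoa4, which delivers ferritin to autophagy, rose in both (0.59 and 0.62), and in extract Hfe, a regulator of iron uptake, rose (0.50, adjusted p = 0.0461) and the metallothionein Mt1 fell (-0.46, adjusted p = 0.0381). Of 21 partner proteins of solute carriers, 1 passed in vehicle and 2 in extract: the carbonic anhydrase Car4 fell in both (-2.70 and -2.14), and the monocarboxylate transporter partner Emb rose in extract (0.50, adjusted p = 0.0261). The medians of these 3 lists lay between -0.05 and 0.03 in either arm. Cell type markers also differed between the times. Of the macrophage markers Adgre1 (F4/80) rose by 1.16 in vehicle and 1.26 in extract. Mertk gave 0.61 and 0.46 and Fcgr1 -0.31 and -0.27 without passing. The summed signal of the 5 measured was 44205 to 49670 at 4 h and 47032 to 50643 at 12 h, most of it from Csf1r (33146 to 38691). Sums of this kind follow their brightest markers and do not measure the share of a cell type. Of the 10 dendritic cell markers Zbtb46 rose by 0.78 and 0.70 and Itgax gave -0.38 and -0.35 (adjusted p = 0.0831 and 0.101), and their sum was 210023 to 230185 and then 200690 to 209910. Of the 7 neutrophil markers measured, Csf3r rose by 2.0 and 2.28, S100a8 gave -0.09 and -0.28 and Ngp -0.28 and -0.78 without passing, 4 (Elane, Mpo, Camp and Ltf) were under the reference on most arrays, and the sum was 2862 to 3568 and then 3062 to 3573. Their part in the changes of the solute carriers was not tested.

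The extract was compared with vehicle at each time and over both. At 4 h, 12 h and over both times 0 of 148 members passed, and 5, 19 and 21 had an unadjusted p under 0.05 from limma, 3.38%, 12.8% and 14.2% of the members beside 4.98%, 8.57% and 10.9% of all genes with a signal. After adjustment, of all genes with a signal of 200 or more, 0.0229%, 0.0915% and 0.389% passed. Nor did any member pass under any of the other settings tried, in which the smallest adjusted p of a member was 0.536, 0.244 and 0.0717. For the difference between the extract effects at 12 h and 4 h, 0 members passed of 148 and 0% of all such genes, and 4 members had an unadjusted p under 0.05 (2.70%, beside 2.83% of all such genes).

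The measured effects were small. At 4 h they ran from -0.48 to 0.49 on the log2 scale and at 12 h from -1.35 to 1.02, with medians of -0.03 and -0.01, where the medians over all genes with a signal were -0.01 and -0.02. The 95% interval lay within a 2-fold change in either direction for 144 members at 4 h, 140 at 12 h and 145 over both times, and within 1.5-fold for 103, 90 and 132. A 2-fold change in the mean signal and in both same-numbered arrays, modelled on the 2-fold criterion of the study, was met by 0 members at either time, and a 1.5-fold change by 0 at 4 h and by 2 at 12 h, Slc25a14 and Slc39a14.

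**Figure D4:**
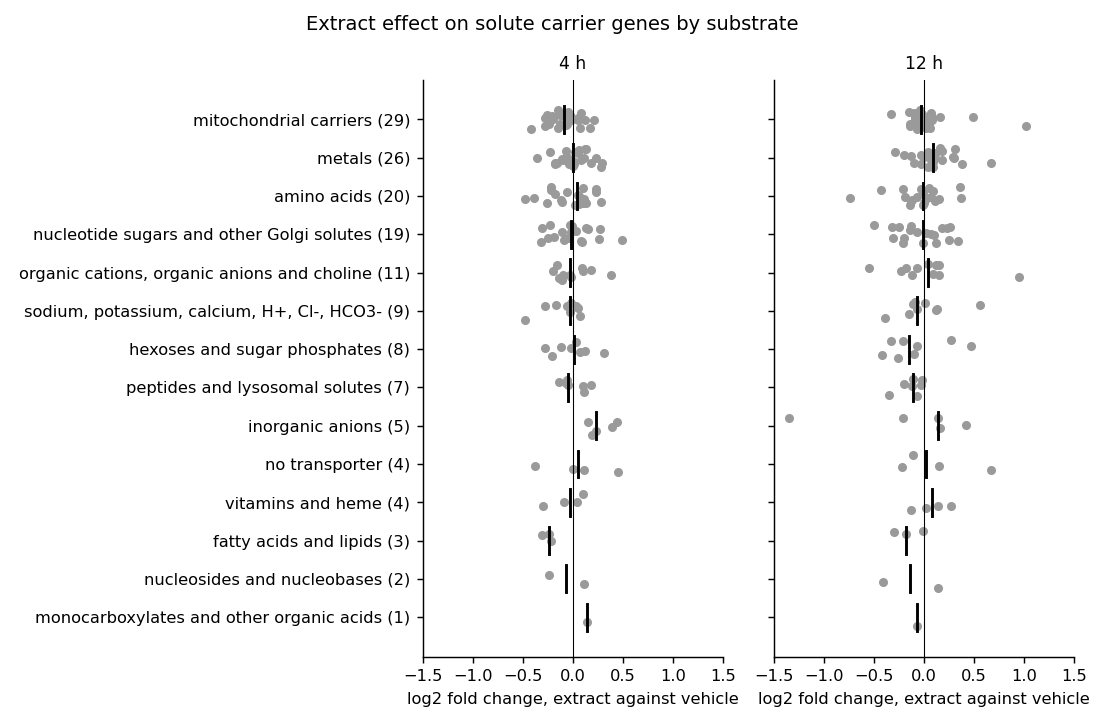
Log2 fold change of extract against vehicle at 4 h (left) and 12 h (right) for the 148 members by substrate (number of members in parentheses), with a black bar at each group's median. No member passed at either time, and the point farthest from 0 is Slc20a2 at 12 h with -1.35.

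The members with the smallest p over both times are given here although each missed the threshold. They were picked on these same arrays, so arrays that do not overlap are a description and add no support. Slc2a6, a hexose transporter of lysosomes that is known to rise in activated macrophages, read 2178.3 and 2187.4 in vehicle and 2447 and 2967.2 in extract at 4 h, and 2661.6 and 2725.6 in vehicle and 3497.2 and 3952.7 in extract at 12 h. The extract arrays were above the vehicle arrays at both times, and the log2 difference was 0.38 over both (95% interval 0.21 to 0.56, adjusted p = 0.176).

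Slc9a3r2, a scaffold that tethers ion exchangers and no transporter itself, read 266.3 and 311.7 against 397.9 and 390.1 at 4 h and 307.3 and 339.3 against 533.3 and 489.7 at 12 h, vehicle first. Its log2 difference was 0.56 (0.27 to 0.85, adjusted p = 0.266), and the arrays did not overlap at either time.

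The sulfate transporter Slc26a2 read 2409.2 and 2428.9 in vehicle and 2923.7 and 2592.1 in extract at 4 h, and 2607.5 and 2802.2 in vehicle and 3738 and 3481.5 in extract at 12 h (log2 0.30, 0.14 to 0.46, adjusted p = 0.294). A second probe set of the gene, with a mean signal of 1493, gave 0.48 over both times (adjusted p = 0.0504). The taurine transporter Slc6a6 read 5711.3 and 5493.9 in vehicle and 6498.7 and 7106.3 in extract at 4 h, and 3996.2 and 4569.5 in vehicle and 5005.8 and 5982.1 in extract at 12 h (0.32, 0.14 to 0.49, adjusted p = 0.320). Both had every extract array above the vehicle arrays of the same time on these probe sets. The other probe sets of Slc6a6 differed in direction: that with a mean signal of 3049 gave 0.25 over both times, and one with a mean signal of 391 gave -0.45 (unadjusted p = 0.00499, limma), with adjusted p of 0.620 and 0.452.

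Slc22a4, the importer of the antioxidant ergothioneine, read 291.6 and 256.8 in vehicle and 341.3 and 371.5 in extract at 4 h, and 243.2 and 154.6 in vehicle and 346.3 and 405.2 in extract at 12 h. The difference was 0.66 over both times (0.28 to 1.05, adjusted p = 0.358), and its 12 h vehicle mean was under the 200 that chose the members.

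**Figure D5:**
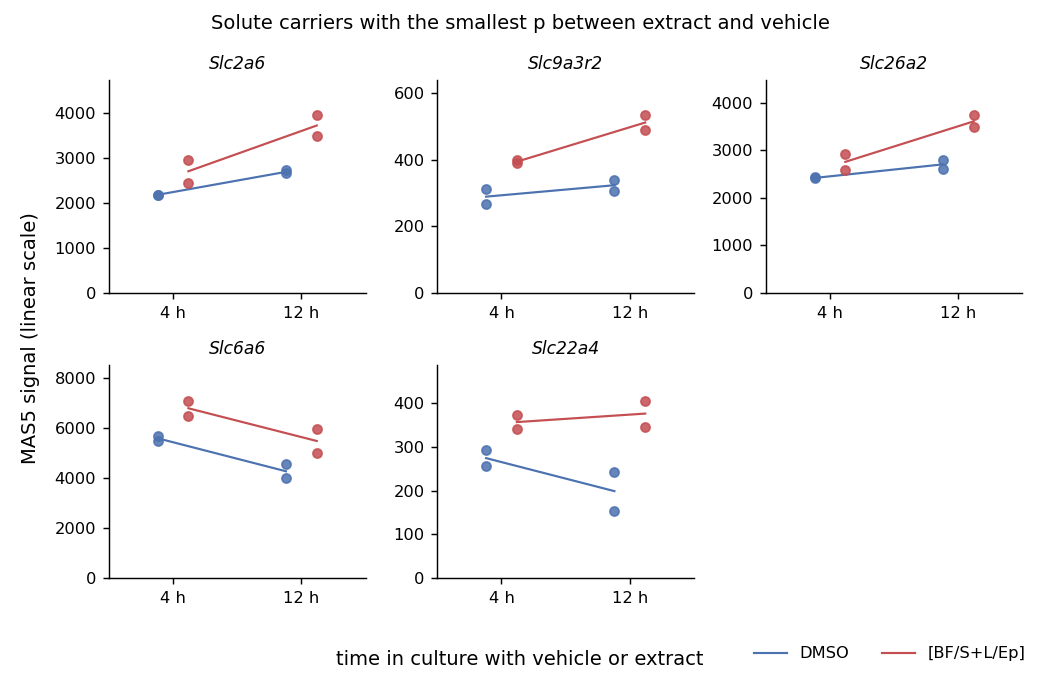
MAS5 signal (linear scale from 0) of the 5 members with the smallest p for extract against vehicle over both times, with 1 dot per array and lines joining the group means. Both extract arrays lie above both vehicle arrays at 4 h and at 12 h in each gene, and the smallest adjusted p is 0.176 (Slc2a6). The genes were picked by p on these arrays, so this separation adds no support.

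At 12 h alone Slc37a2, a sugar phosphate exchanger of the endoplasmic reticulum that macrophages express, read 1438.3 and 1344.5 in vehicle and 1001.2 and 1073.1 in extract (log2 -0.42, adjusted p = 0.521). Slc39a14, a ZIP family importer of zinc, manganese and iron, read 271.6 and 289.7 in vehicle and 408.3 and 487.9 in extract (0.67, adjusted p = 0.663). Slc25a14, of the uncoupling protein family, read 123.5 and 200.4 in vehicle and 323.2 and 314.5 in extract (1.02, adjusted p = 0.566), after 305.5 and 344.7 in vehicle and 211.2 and 338.7 in extract at 4 h. The value of Slc20a2, -1.35, rests on the array at 62.5, which lay under its background reference of 75.9.

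At 4 h alone the smallest p belonged to Slc9a3r1, a scaffold of the plasma membrane, with 3294.6 and 3995.6 in vehicle and 2811.2 and 2779.4 in extract (log2 -0.38, adjusted p = 0.969). Slc35b1, an ATP and ADP exchanger of the endoplasmic reticulum, read 1609.9 and 1536.6 in vehicle and 1781.3 and 2028.1 in extract (0.27, adjusted p = 0.997). The extract effect at 12 h less that at 4 h had its smallest p at Slc25a14 (1.30), followed by Slc4a8 (0.84), the coenzyme A carrier Slc25a42 (0.90), Slc20a2 (-1.79) and Slc9a9 (-0.46), each with an adjusted p of 1.0. Of these 5, all but Slc9a9 belong to the 7 members with a group mean under 200.

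By substrate the medians of the extract effect over both times ran from -0.24 for the 3 fatty acid transporters to 0.15 for the 5 inorganic anion transporters. Those of the largest classes were -0.06 for mitochondrial carriers, 0.04 for metals, -0.07 for amino acids and -0.05 for nucleotide sugars, beside -0.01 for all genes with a signal. The metal transporters that phagocytes are known for had values of 0.29 for Slc11a1 (adjusted p = 0.659) and -0.22 for Slc40a1 (adjusted p = 0.690). Of the partner proteins the carbonic anhydrase Car2 was higher in extract (0.73 over both times, adjusted p = 0.0255), and of the other transporter families and the metal handling genes 0 passed. The 8 of the 9 solute carriers left out by name that have a signal also gave 0 calls between extract and vehicle.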

How the data were processed

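RNA of 8 samples was measured on Affymetrix mouse whole-genome arrays. The labels do not say whether the samples came from separate cultures. The intensity values are the MAS5 signals deposited by the authors, with no log taken, and their trimmed mean was 500 on every array. No source used here gives the MAS5 version. Symbols came from the platform annotation. The brightest probe set of each gene with 1 symbol was used, and 64 control probe sets were left out. Log2 signals of 45037 probe sets were fitted with 4 group means in limma 3.58.1 (R 4.3.3), with moderation that follows the signal (4 residual and 8.83 prior degrees of freedom). P-values are two-sided and adjusted over all probe sets by the Benjamini-Hochberg method, with a threshold of 0.05. The fit was tested on simulated data. The labels give no batch.

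The members and lists were chosen with earlier results of these data known. The comparison of times over both treatments, the crossed pairing and the substrate of 6 members were added after seeing the data. Named genes are the members called in any comparison, the 5 with the smallest p where fewer passed, the 3 brightest of each substrate class, those with known roles in phagocytes and the 4 on each side of the threshold.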

Additional observations from a re-analysis of the deposited data

How the results depend on the processing

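Each result was recomputed with quantile or median normalization, an offset of 50, other moderation, a filter on dim probe sets, the mean of a gene's probe sets, a replicate block, a fit of the compared arrays alone, and each array left out. Between extract and vehicle 0 members passed under any of these, the replicate block included. Between times, 7 members passed in vehicle and 3 did after median centring, 4 with the offset, 0 without the intensity trend and 13 when only probe sets with a mean signal of 200 or more were tested. In extract, 9 passed, against 0 without the trend, 16 with that filter and 5 with the mean of probe sets. Over both treatments, 27 passed, against 15 after median centring, 1 without the trend and 15 with the mean of probe sets. The cause was not tested. With the replicate block the counts were 6, 10 and 25. The labels do not say whether same-numbered arrays share a culture or a day. Their deviations from the group means had r from -0.152 to 0.185 over 8743 genes. Correlations across genes cannot decide whether the arrays are paired. A crossed pairing in vehicle, added after seeing the data, called 4. With 1 array left out, 2 to 6 passed in vehicle (2 to 4 without any DMSO array or either [BF/S+L/Ep] 12 h array), 4 to 9 in extract (4 without [BF/S+L/Ep] 12 h replicate 2, 5 without 4 h replicate 1) and 12 to 23 over both (12 and 14 without DMSO 4 h replicates 1 and 2, 13 without DMSO 12 h replicate 1, 17 without [BF/S+L/Ep] 12 h replicate 1). Slc41a1 turned to -0.43 with the mean of its probe sets. At 12 h, 0 members met the 2-fold rule, 1 by the ratio of means alone and 2 at 1.5-fold. Membership was 183 at a threshold of 100, 111 at 400 and 115 with the mean of probe sets. Members near the background reference, such as Slc20a2, have the widest errors.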
